A study of Mus musculus with 8 samples.

Results

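The mRNA of 10 genes whose proteins are drug targets for the tone of prostate and bladder smooth muscle was examined in prostates of non-obese diabetic (NOD) mice. They were the 3 α1-adrenoceptor genes Adra1a, Adra1b and Adra1d, the β3-adrenoceptor gene Adrb3, the muscarinic receptor genes Chrm2 and Chrm3, the phosphodiesterase gene Pde5a, the endothelin receptor genes Ednra and Ednrb, and the oxytocin receptor gene Oxtr. The genes were chosen by name, as a set of receptors and 1 enzyme, and were 10 of the 54532 genes in the count table. All 10 were found there, and all 10 passed the filter on low counts that left 15472 genes for testing.

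Prostate tissue of 8 mice, 4 controls and 4 given etanercept, was sequenced as bulk RNA to ask how the prostate transcriptome differs when tumor necrosis factor (TNF) is blocked. Etanercept, a fusion of a TNF receptor with an antibody tail, captures soluble TNF. All 8 mice were males of the NOD/ShiLtJ strain, which develops spontaneous autoimmune disease. The study analysed diabetic and non-diabetic animals together, and the labels do not give the diabetic status of the 8 sequenced mice. Treated mice received 4 mg/kg etanercept by intraperitoneal injection and controls received PBS by the same route, each 2 times per week for 5 weeks, and all prostates were collected at an age of 30 weeks. Mice are named by group and by the animal number in their labels, as control 1, 3, 65 and 69 and etanercept 17, 19, 50 and 52, and each prostate is 1 library.

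Smooth muscle of the prostate stroma contracts when noradrenaline from sympathetic nerves binds α1-adrenoceptors, which couple to the Gq protein, phospholipase C, calcium release and myosin light chain kinase. Endothelin and oxytocin receptors and the M3 muscarinic receptor use the same Gq route, whereas M2 lowers cyclic AMP through Gi proteins and the β3-adrenoceptor raises it through Gs. Nitric oxide relaxes the muscle through guanylyl cyclase and cyclic GMP, which phosphodiesterase 5 breaks down. α1-blockers such as tamsulosin and phosphodiesterase 5 inhibitors such as tadalafil are given for lower urinary tract symptoms of benign prostatic hyperplasia, and antimuscarinics and β3-agonists are given for overactive bladder.

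The 3 α1 subtypes are closely related proteins, so it was first examined whether reads can tell them apart. For each subtype, 60 bases of coding exon are printed from the GRCm38 (mm10) genome, 5′ to 3′ on the gene's own strand, around the conserved aspartate-arginine-tyrosine motif through which such receptors switch on G proteins. The capitals mark the 9 bases of that motif. Adra1a lies on the plus strand at chr14:66637917-66637976, Adra1b on the minus strand at chr11:43835633-43835692 and Adra1d on the minus strand at chr2:131561578-131561637.
Adra1a: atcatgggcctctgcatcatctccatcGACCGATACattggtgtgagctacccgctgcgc
Adra1b: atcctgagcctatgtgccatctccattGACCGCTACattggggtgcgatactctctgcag
Adra1d: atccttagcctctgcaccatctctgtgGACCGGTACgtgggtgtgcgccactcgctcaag
Even in this conserved stretch, Adra1a and Adra1b were identical at 45 of 60 bases, Adra1a and Adra1d at 43 and Adra1b and Adra1d at 44. The longest run of identical bases between the transcripts was 15 for Adra1a and Adra1b and 20 for each of the other pairs, and the reads were 150 nt long. Chrm2 and Chrm3 shared at most 20 bases in a row, and Ednra and Ednrb shared at most 15. Over all pairs of the 10 genes the longest run was 33 bases, between Adra1b and Oxtr, still shorter than a read.

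Total counts ranged from 13760669 to 25178942 per mouse. All 12 smooth muscle markers and all 11 prostate epithelial markers had counts in every mouse, as the labelled tissue would. RNA of neighbouring tissues differed widely between prostates. Summed seminal vesicle markers were at 97200 CPM (read counts scaled to library size) in etanercept 17, 4000 CPM in control 69 and no higher than 668 CPM elsewhere, and skeletal muscle markers were highest in control 3, at 1980 CPM. Results that rest on such a mouse are therefore also given without it.

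No difference between etanercept-treated and control prostates was detected for any of the 10 drug target genes, and for every gene the values of the groups overlapped. The quasi-likelihood test of edgeR, with p-values adjusted by Benjamini-Hochberg over all tested genes, called 0 of the 10 and 0% of the 15472 genes at the threshold of 0.05. With DESeq2, which tested 23393 genes, 21 were called and 0 of the 10. Before adjustment, 0 of the 10 had a p of 0.05 or less, against 6.62% of all tested genes, made up of 2.99% that were higher and 3.63% that were lower in etanercept-treated mice. Groups did not overlap for 4.94% of all tested genes. The smallest adjusted p among the 10 genes was 0.862 for Ednra, against 0.739 as the smallest of all genes. The fold change was above 0 on the log2 scale for 6 genes and below 0 for 4, with a median of 0.12, against −0.01 over all tested genes. These p-values do not show that the genes were alike in both groups, since the 95% intervals were wide. The narrowest, that of Pde5a, reached from 0.38 to 1.59 times the control level, and the widest, that of Adrb3, from 0.0729 to 5.69 times. In bulk tissue, fewer cells of a type and less RNA per cell cannot be told apart.

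**Figure D1:**
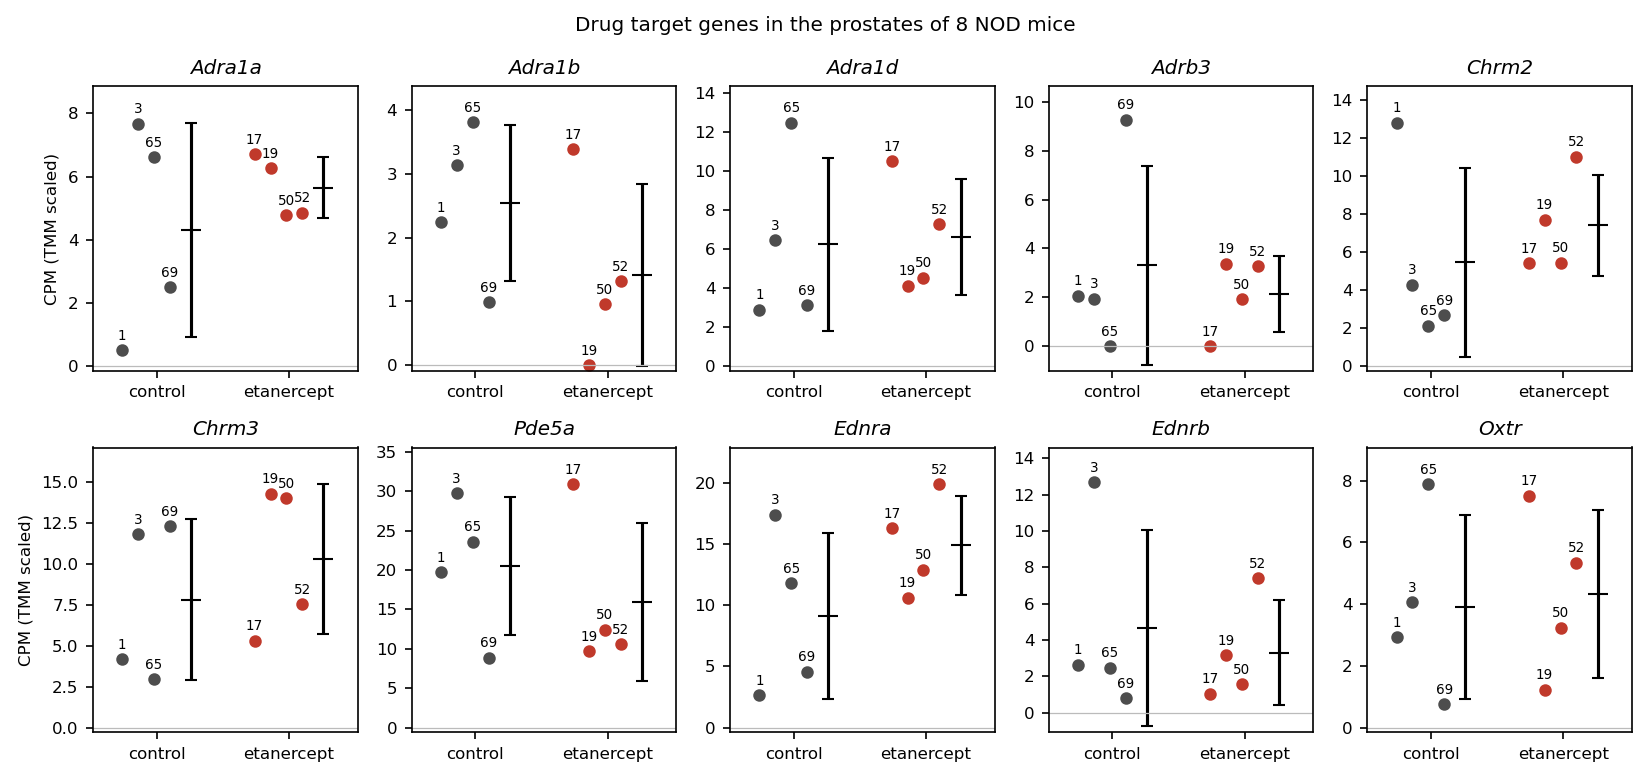
Level of each drug target gene in each prostate, in CPM after TMM scaling (vertical axis), for 4 control mice (grey) and 4 etanercept-treated mice (red), with animal numbers beside the points. The bar beside each group gives the mean and SD (n = 4); points of the groups overlap in all 10 panels.

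Among the α1-adrenoceptors, Adra1a is the subtype that dominates contraction of the human prostate and the one tamsulosin and silodosin prefer. Its gene spans bases 66635251 to 66771168 on chromosome 14. In control 1, 3, 65 and 69 it was measured at 0.506, 7.67, 6.62 and 2.49 CPM, and in etanercept 17, 19, 50 and 52 at 6.7, 6.26, 4.78 and 4.85 CPM. The treated mice were close together and lay inside the range of the controls, among which control 1 stood lowest with 14 reads. Means were 4.32 ± 3.39 CPM (SD, n = 4) in controls and 5.65 ± 0.976 CPM (SD, n = 4) after etanercept. The log2 fold change was 0.39 (SE 0.69, 95% interval −1.15 to 1.93, adjusted p = 0.968), and it was −0.003 when control 1 was left out and −0.66 with the smooth muscle marker level as a covariate. The coefficient of variation was 78.4% in controls and 17.3% in treated mice, a difference that was not tested.

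Adra1b encodes the α1B subtype, which is best known from blood vessels and liver, and spans bases 43774606 to 43901210 on chromosome 11. It stood at 2.24, 3.13, 3.8 and 0.984 CPM in control 1, 3, 65 and 69 and at 3.38, 0, 0.957 and 1.32 CPM in etanercept 17, 19, 50 and 52. Apart from control 69 and etanercept 17, which fell among the mice of the other group, controls were higher than treated mice. The 0 reads in etanercept 19 allow a level of up to 0.16 CPM, the equivalent of 3 reads. Etanercept against control gave a log2 fold change of −0.84 (SE 1.11, 95% interval −3.33 to 1.65, adjusted p = 0.946), and without single mice it ranged from −1.74 to −0.43. With the smooth muscle marker level as a covariate it was −1.92 (SE 1.9). Between 0 and 62 reads per mouse stand behind these levels, so that the precision is low.

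Adra1d encodes the α1D subtype, found in the detrusor, the spinal cord and large arteries, for which tamsulosin and naftopidil also have affinity. The gene spans bases 131545850 to 131562283 on chromosome 2. Its values were 2.89, 6.47, 12.5 and 3.13 CPM in control 1, 3, 65 and 69 and 10.5, 4.12, 4.54 and 7.28 CPM in etanercept 17, 19, 50 and 52. The highest prostate of each group, control 65 and etanercept 17, stood well above the rest. The group means were 6.24 ± 4.46 CPM (SD, n = 4) and 6.62 ± 2.97 CPM (SD, n = 4). The log2 fold change of 0.09 (SE 0.55, 95% interval −1.14 to 1.31, adjusted p = 0.997) turned negative when control 1, control 69 or etanercept 17 was left out, at −0.16, −0.13 and −0.23, and was 0.64 without control 65. With the smooth muscle score, described with Ednra, as a covariate it was −0.93.

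Scaled by annotated exon length, Adra1d was the main α1 transcript in all 8 prostates. It made up 71.3% ± 5.65 (SD, n = 4) of the summed α1 FPKM (fragments scaled by exon length and library size) in controls and 76.4% ± 2.65 (SD, n = 4) in treated mice, with a range from 65.4% to 80.2%. The summed level itself spread more widely between mice, at 4.53 ± 2.96 FPKM in controls and 4.55 ± 2.02 FPKM after etanercept. Adra1a took 10.3% ± 6.07 of the sum in controls and 16% ± 6.55 in treated mice, and its lowest share was 2.58%, in control 1. Adra1b took 18.4% ± 7.71 and 7.64% ± 5.66, from 0% in etanercept 19 to 29.5% in control 1. Exon length matters here, since the summed exons of Adra1a, 8728 bases, are more than its longest transcript of 4282 bases. With the longest transcript as the length, Adra1d was still the largest share in all 8 prostates, at 55.5% to 71.5%, while Adra1a ranged from 5.11% to 40.3%. This does not test the length of Adra1d, which is 1899 bases by both measures, 1686 of them coding. If its transcript is longer than annotated, its share is too high. In reads, Adra1a exceeded Adra1d in control 3 (115 against 97), etanercept 19 (117 against 77) and etanercept 50 (80 against 76), and was below it in the other mice. An RNA gene on the opposite strand, Gm14285, overlaps 147 exon bases of Adra1d and held 4 counts over all mice.

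**Figure D2:**
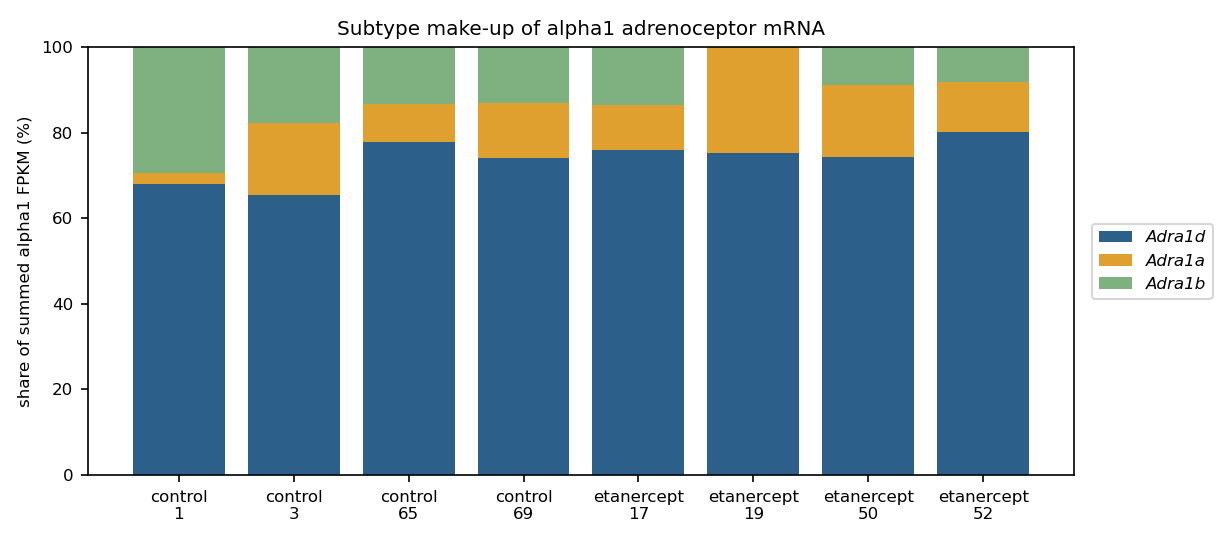
Share of each α1-adrenoceptor gene in the summed α1 FPKM (vertical axis, %) in each prostate (horizontal axis). Each bar is 1 mouse, and Adra1d fills between 65.4% and 80.2% of every bar.

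The β3-adrenoceptor is the target of mirabegron and relaxes bladder muscle, and it is also abundant in fat cells. Adrb3 spans bases 27225776 to 27250616 on chromosome 8. It was at 2.06, 1.93, 0 and 9.26 CPM in control 1, 3, 65 and 69 and at 0, 3.37, 1.91 and 3.26 CPM in etanercept 17, 19, 50 and 52. Control 69, with 160 reads, stood far above the next mouse, and control 65 and etanercept 17 had 0 reads, which allows up to 0.211 and 0.175 CPM. Its fitted log2 fold change was −0.64 (SE 1.4, adjusted p = 0.982) and became 0.67 without control 69. Adipocyte markers summed to 92.3 to 821 CPM in controls and 29.6 to 62.1 CPM in treated mice, with 6 of 7 tested markers lower at an unadjusted p of 0.05 or less, against 3.63% of all tested genes (adjusted p of at least 0.739), and 4 of 8 counted in every mouse. Control 69, the mouse with most Adrb3, was at 155 CPM for these markers, and the 4 brown fat markers summed to 1.22 CPM in it and to 1.76 to 9.94 CPM in the other mice, with Ucp1 and Elovl3 at 0 in all mice and Cidea and Dio2 counted in most. The part of fat cells in the Adrb3 values was not tested. A gene on the opposite strand, Gm45470, shares 839 exon bases (24.9%) with Adrb3 and held 59 counts over all mice, and whether counting used strand is not given in the sources used here.

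Of the other adrenoceptors, 4 of 5 genes were tested, with a median log2 fold change of 0.21. Of these, 0 passed an unadjusted p of 0.05 in either direction, against 6.62% of all tested genes. Adra2a, an inhibitory receptor on nerve endings and other cells that is named here after its values were seen, averaged 5.41 ± 2.25 FPKM (SD, n = 8), against 3.39 ± 1.85 FPKM for Adra1d.

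The muscarinic receptors M2 and M3 are the targets of antimuscarinics. Chrm2 spans bases 36388084 to 36528414 on chromosome 6 and was at 12.8, 4.27, 2.11 and 2.66 CPM in control 1, 3, 65 and 69. In etanercept 17, 19, 50 and 52 it was at 5.42, 7.7, 5.44 and 11 CPM. All 4 treated mice lay above controls 3, 65 and 69, and control 1 lay above all of them. The log2 fold change was 0.43 (SE 0.59, 95% interval −0.88 to 1.74, adjusted p = 0.95). Without control 1 it was 1.27 (unadjusted p = 0.0253, adjusted p = 0.831), in a fit where 5.97% of all tested genes had an unadjusted p of 0.05 or less. Without control 65, etanercept 52 or control 69 it was 0.16, 0.17 or 0.21.

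By summed markers, control 1 was also the prostate with most nerve RNA. Summed nerve and Schwann cell markers were at 2420, 121, 610 and 19.2 CPM in control 1, 3, 65 and 69 and at 912, 672, 803 and 1260 CPM in etanercept 17, 19, 50 and 52. The highest and second highest mice, control 1 and etanercept 52, were the same as for Chrm2. Lower down the orders differed, since control 65, lowest for Chrm2 at 2.11 CPM, had more nerve RNA than control 3, at 4.27 CPM. Single markers differed too, named after their values were seen. Th, Dbh, Slc6a2 and Vip were at 14.5, 19, 21.3 and 326 CPM in control 1. In etanercept 52 they were higher, at 23.5, 30.2, 33 and 364 CPM, while the other markers of the list were highest in control 1. Of the 17 markers, 6 had counts in every mouse and 0 passed an unadjusted p of 0.05, against 6.62% of all tested genes. The part of nerve tissue in the Chrm2 values was not tested. Nos1, the neuronal nitric oxide synthase, showed a like spread, with 199, 2.6, 22.4 and 0 CPM in control 1, 3, 65 and 69 and 30.4 to 58.6 CPM in treated mice.

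Chrm3 encodes the M3 receptor, which contracts bladder muscle and drives glandular secretion, and spans bases 9875486 to 10360847 on chromosome 13. It was at 4.16, 11.8, 2.96 and 12.3 CPM in control 1, 3, 65 and 69 and at 5.3, 14.3, 14.0 and 7.55 CPM in etanercept 17, 19, 50 and 52. Each group held a pair of high and a pair of low mice. For Chrm3 the log2 fold change was 0.40 (SE 0.54, 95% interval −0.79 to 1.6, adjusted p = 0.946) and stayed above 0, between 0.11 and 0.71, whichever mouse was left out. The 3 prostates with most Chrm3, etanercept 19, etanercept 50 and control 69, were also the 3 with most Mme, the endopeptidase neprilysin, and most Rgs2, a brake on Gq signaling, both named after their values were seen. Mme stood at 1460, 1250 and 1630 CPM in them and between 163 and 875 CPM in the other mice. The same prostates were also highest for Cdh1, Hoxb13, Upk1a, Notch3 and Pde3a, so the pattern was not particular to Chrm3, Mme and Rgs2. Over the 8 mice, 83 of 14538 genes had a Pearson r above 0.9 with Chrm3.

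The balance of the 2 muscarinic receptors moved between prostates. Per length, Chrm2 made up from 18.3% of their summed FPKM, in control 69, to 76%, in control 1, and was the larger in 3 of 8 mice, control 1, etanercept 17 and etanercept 52. Its mean share was 41% ± 25.4 (SD, n = 4) in controls and 43.9% ± 14.4 (SD, n = 4) in treated mice, a difference well within the spread. Of the other muscarinic receptors, Chrm5 had 0 reads in all mice. Chrm1 and Chrm4 were tested and 0 passed an unadjusted p of 0.05, against 6.62% of all tested genes. Chrm1, the M1 receptor of nerve cells and glands, named after its values were seen, averaged 4.8 ± 2.98 FPKM (SD, n = 8), above the means of Chrm3 (1.45 FPKM) and Chrm2 (1.06 FPKM).

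Phosphodiesterase 5, the tadalafil target, degrades cyclic GMP. Pde5a spans bases 122728947 to 122859374 on chromosome 3 and had between 153 and 546 reads per mouse, the most of the 10 genes when summed over mice. Control 1, 3, 65 and 69 were at 19.7, 29.7, 23.6 and 8.86 CPM, and etanercept 17, 19, 50 and 52 at 30.9, 9.68, 12.4 and 10.6 CPM. Etanercept 19, 50 and 52 and control 69 were low, at 8.86 to 12.4 CPM, and the remaining controls and etanercept 17 were high, at 19.7 to 30.9 CPM, with no mouse in between. Over all mice the log2 fold change was −0.36 (SE 0.46, 95% interval −1.39 to 0.67, adjusted p = 0.94). Without etanercept 17, the prostate with most seminal vesicle RNA, it was −0.91 (unadjusted p = 0.0459, adjusted p = 0.716), beside 6.81% of all tested genes with an unadjusted p of 0.05 or less in that fit. Without control 3 or etanercept 19 it was −0.13 or −0.19, and when the other mice were left out in turn it stayed below 0. Control 69, second highest for seminal vesicle markers at 4000 CPM, had the lowest Pde5a of all mice, 8.86 CPM. Whether seminal vesicle tissue carried the Pde5a of etanercept 17 was not tested.

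The rest of the nitric oxide and cyclic GMP pathway gave 19 tested genes of 23, of which 0 were higher and 1 was lower before adjustment (p of 0.05 or less), against 2.99% and 3.63% of all tested genes, with a median log2 fold change of 0.05. The 1 gene was Nos2, the inducible nitric oxide synthase of activated macrophages and other cells. It was at 1.19, 4.27, 1.76 and 0.637 CPM in control 1, 3, 65 and 69 and at 0, 0, 0 and 0.346 CPM in etanercept 17, 19, 50 and 52, so that the groups did not overlap, as for 4.94% of all tested genes (unadjusted p = 0.0145, adjusted p = 0.739). Leukocyte markers had fold changes below 0 on the log2 scale in 13 of 13 genes, against 7884 of all 15472, and 4 of the 13 had an unadjusted p of 0.05 or less, against 3.63% of all tested genes, with sums of 244 to 898 CPM in controls and 234 to 291 CPM in treated mice. Their part in the Nos2 values was not tested. The nitric oxide receptor subunits Gucy1a1 and Gucy1b1 had log2 fold changes of −0.06 (SE 0.75) and 0.01 (SE 0.77), and the endothelial synthase Nos3 −0.67 (SE 1.34). Prkg1, the cyclic GMP-dependent kinase that relaxes smooth muscle, averaged 1.71 ± 1.14 CPM (SD, n = 4) in controls and 3.88 ± 1.85 CPM (SD, n = 4) in treated mice, with an unadjusted p of 0.104.

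The endothelin receptor ETA, the target of ambrisentan and atrasentan, contracts smooth muscle. Ednra spans bases 77663031 to 77724464 on chromosome 8. It was at 2.64, 17.4, 11.8 and 4.57 CPM in control 1, 3, 65 and 69 and at 16.3, 10.6, 12.9 and 19.9 CPM in etanercept 17, 19, 50 and 52. No treated mouse was below 10.6 CPM, whereas controls 1 and 69 were below 5 CPM and controls 3 and 65 lay inside the treated range. Ednra had the smallest p of the 10 genes, with means of 9.11 ± 6.8 CPM (SD, n = 4) and 14.9 ± 4.06 CPM (SD, n = 4). The log2 fold change was 0.72 (SE 0.54, 95% interval −0.49 to 1.92, unadjusted p = 0.214). Without control 3 it was 1.24 (unadjusted p = 0.041, adjusted p = 0.841), where 5.89% of all tested genes had an unadjusted p of 0.05 or less. Without control 1 or control 69 it was 0.39 (unadjusted p = 0.405) or 0.50 (unadjusted p = 0.387).

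Summed smooth muscle markers were at 4490, 9390, 9090 and 8230 CPM in control 1, 3, 65 and 69 and at 14700, 9060, 14900 and 17700 CPM in etanercept 17, 19, 50 and 52. Controls 1 and 69 were lowest and etanercept 52 was highest for both, but control 3 was second highest for Ednra at a marker sum of 9390 CPM, and etanercept 50, second highest for the markers, was at 12.9 CPM for Ednra, below control 3. With the smooth muscle score, the mean log2(CPM + 1) of the 12 markers, as a covariate, the log2 fold change of Ednra was −0.52 (SE 0.5), so that its direction turned. The part of smooth muscle content in the Ednra values was not tested.

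ETB, the other endothelin receptor, clears endothelin and releases nitric oxide in endothelium and is also found in glia and pigment cells. Ednrb spans bases 103814625 to 103844402 on chromosome 14. It was at 2.64, 12.7, 2.47 and 0.81 CPM in control 1, 3, 65 and 69 and at 1.05, 3.16, 1.55 and 7.41 CPM in etanercept 17, 19, 50 and 52. Control 3 stood far above the other controls, and etanercept 52 above the other treated mice. Its log2 fold change was −0.50 (SE 0.89, adjusted p = 0.969) and changed sign to 0.74 without control 3. Control 3 had the highest endothelial marker sum, 198 CPM, against 70.9 to 123 CPM in the other mice, with 9 of 10 markers counted in every mouse, and it was also highest in skeletal muscle, adipocyte, leukocyte (898 CPM) and fibroblast (1190 CPM) markers. Etanercept 52 was second to control 3 for fibroblast markers, at 1110 CPM, and stood at 113 CPM for endothelial markers, below control 1. The part of these tissues in the Ednrb value was not tested.

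Ednra was the larger part of endothelin receptor mRNA per length in all mice but control 1. Its share was 64% ± 19 (SD, n = 4) in controls and 79.7% ± 11.7 (SD, n = 4) in treated mice, from 43.8% in control 1 to 92.4% in etanercept 17. The ligand gene Edn1, a vasoconstrictor peptide, was at 6.4 to 20.4 CPM in controls and 4.66 to 19.6 CPM in treated mice (log2 fold change −0.15, SE 0.52). Edn3, which binds ETB as strongly as the other endothelins, was at 31.7, 1.53, 7.68 and 1.74 CPM in control 1, 3, 65 and 69 and 8.66 to 16.5 CPM in treated mice. Edn2 stayed at or below 4.46 CPM in all mice. Of the 12 genes for endothelin and oxytocin ligands, processing enzymes and related receptors, 7 were tested. An unadjusted p of 0.05 in either direction was passed by 0 of them, against 6.62% of all tested genes.

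The oxytocin receptor contracts uterine muscle and is also found in prostate stroma. Oxtr spans bases 112473683 to 112489943 on chromosome 6. It was at 2.93, 4.07, 7.89 and 0.752 CPM in control 1, 3, 65 and 69 and at 7.51, 1.23, 3.23 and 5.34 CPM in etanercept 17, 19, 50 and 52. The prostates with most Oxtr, control 65 and etanercept 17, were those with most Adra1d. For Oxtr the log2 fold change was 0.15 (SE 0.74, 95% interval −1.51 to 1.81, adjusted p = 0.995), and it was −0.26 without etanercept 17, −0.19 without control 69 and −0.88 with the smooth muscle score as a covariate. Oxt, the gene of the hormone itself, had 0 reads in all 8 mice, so any transcript was below the level of 3 reads per library, 0.108 to 0.211 CPM.

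**Figure D3:**
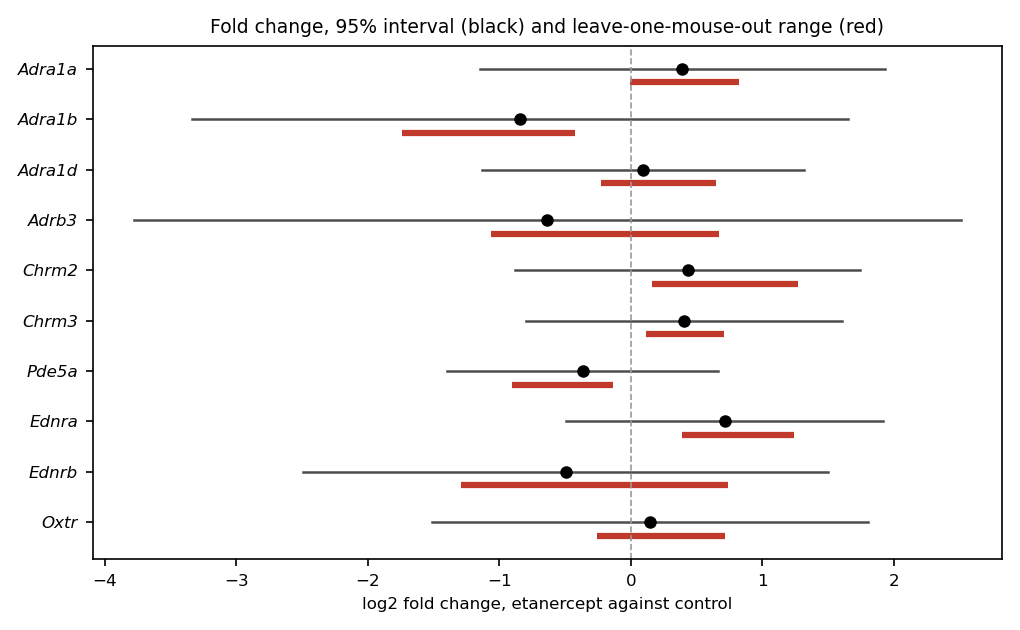
Log2 fold change of each drug target gene, etanercept against control (horizontal axis), as a point with its 95% interval (black line) and, below it, the range when each mouse was left out in turn (red line). Every interval includes 0, and the red range crosses 0 for Adra1a, Adra1d, Adrb3, Ednrb and Oxtr.

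Levels of the 10 genes relative to each other were compared per exon length. Adra1d was highest with a mean of 3.39 ± 1.85 FPKM (SD, n = 8), then Ednra with 2.19 ± 1.1, Pde5a with 1.85 ± 0.923 and Chrm3 with 1.45 ± 0.736. Chrm2, Ednrb, Oxtr and Adrb3 had means between 0.807 and 1.06 FPKM, and Adra1b and Adra1a were lowest with 0.585 ± 0.404 and 0.571 ± 0.277. Of the 9 steps in this order, that from Adra1d down to Ednra was the 1 that held in all 8 mice. The other neighbours changed places in 2 to 4 mice. With the longest transcript as the length, Adra1d and Ednra averaged 3.39 and 3.32 FPKM and 0 steps held in all mice, and Adra1a moved up to place 5 with 1.16 FPKM. Mean FPKM lay between percentiles 13.2 (Adra1a) and 47.9 (Adra1d) of the tested genes, so that all 10 were below the median.

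The genes were also variable between mice. Between 75.9% (Adra1d) and 95.5% (Adrb3) of all tested genes had a smaller SD of log2(CPM + 1) over the 8 mice, and among genes of like level the shares were 62.4% to 93.3%. The highest mouse exceeded the lowest 15.6 times for Ednrb, 15.1 times for Adra1a and 10.5 times for Oxtr, and 3.49 times for Pde5a. Adra1b and Adrb3 have no such ratio, since each had a mouse with 0 reads. Adrb3 spread more widely than the genes just named, from at most 0.211 CPM in control 65 to 9.26 CPM in control 69. The genes whose log2(CPM + 1) followed each receptor most closely over the 8 mice, among 14538 candidates and given with no test, included Srf and Cdh4 for Ednra (Pearson r = 0.982 and 0.972). Others were Zfp772 and Trim32 for Adra1a (0.964 and 0.956), Twistnb for Adra1b (0.969), Eef1a1 and H2afz for Adra1d (0.97 and 0.953) and Srd5a1 and Wdr37 for Adrb3 (0.965 and 0.938). They were Ids and Ptn for Chrm2 (0.972 and 0.966), Dhx36 and Mapk6 for Chrm3 (0.968 and 0.962), Pced1b and Rps24-ps3 for Pde5a (0.989 and 0.979), Bmp6 and Bicc1 for Ednrb (0.982 and 0.972) and AY761184 and C8g for Oxtr (0.96 and 0.95). The points of these correlations share their libraries and depth. High values were common, since between 12 (Adrb3) and 85 (Pde5a) candidates had an r above 0.9, and 55 for Ednra.

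**Figure D4:**
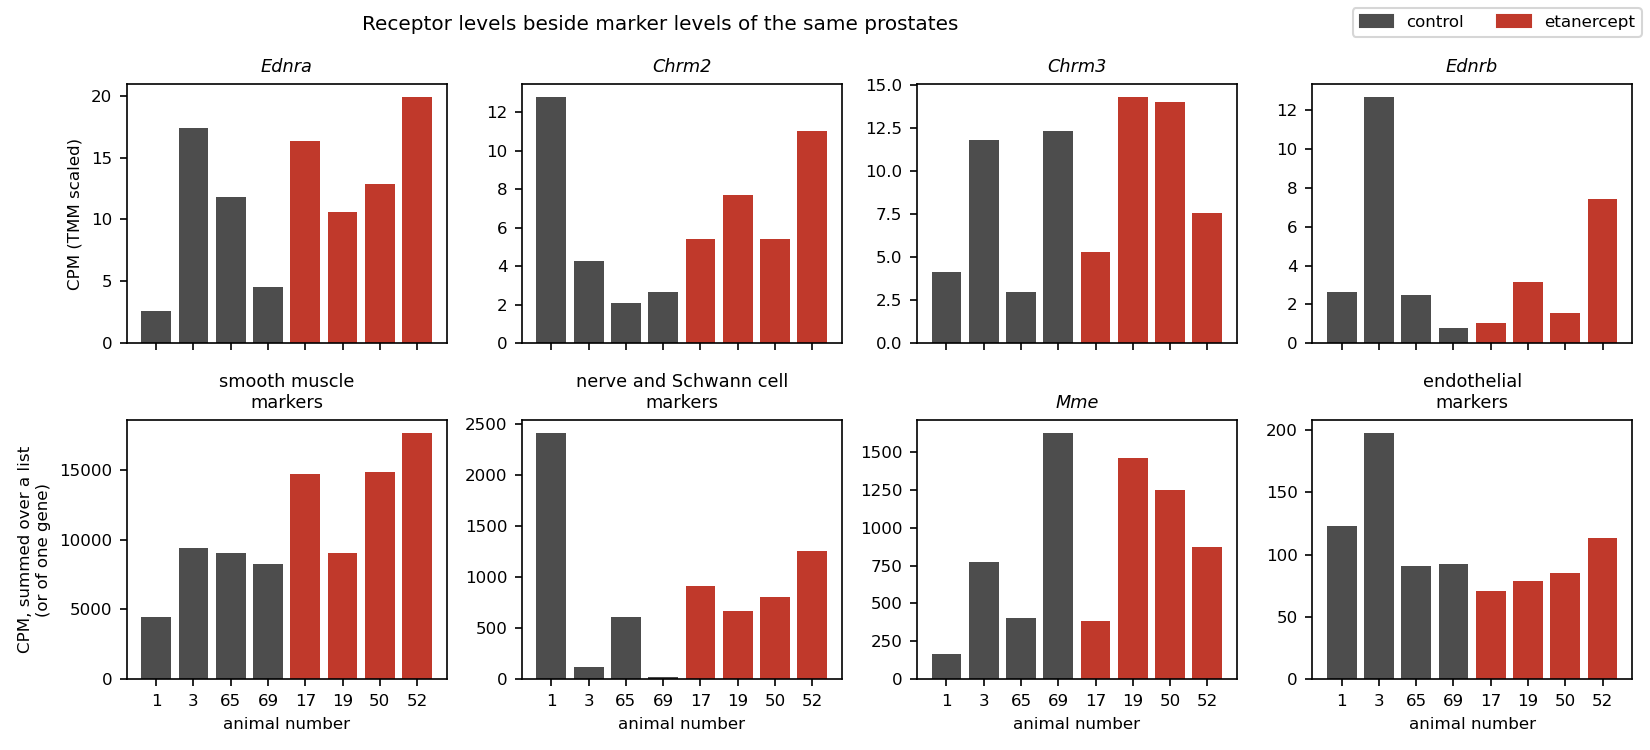
Level in each prostate (bars, named by animal number; control grey, etanercept red) of 4 receptor genes in CPM (upper row) and, below each, of smooth muscle, nerve and Schwann cell, and endothelial markers summed in CPM, or of the gene Mme. Control 1 is highest for Chrm2 and nerve markers, control 3 for Ednrb and endothelial markers, and controls 1 and 69 are lowest for Ednra and smooth muscle markers.

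The drug target genes were also set against the smooth muscle markers of the same prostates. The smooth muscle score was 8.07 ± 0.561 (SD, n = 4) in controls and 8.94 ± 0.356 (SD, n = 4) in treated mice, a difference of 0.87 on the log2 scale, and 8 of the 12 markers were higher with an unadjusted p of 0.05 or less, against 2.99% of all tested genes. After adjustment 0 of the 12 were called (smallest adjusted p = 0.739), and the difference between the markers and the drug target genes was not tested. With the score as a covariate, 0 of the 10 drug target genes had an unadjusted p of 0.05 or less, against 3.06% of all tested genes, and Chrm2 came nearest with 1.81 (SE 0.82, unadjusted p = 0.0562). In that fit the log2 fold change was −1.37 (SE 1.2) for Ednrb, −0.69 (SE 0.7) for Pde5a, −0.55 (SE 2.17) for Adrb3 and 0.24 (SE 0.76) for Chrm3. The score was also subtracted from log2(CPM + 1) of each gene in each mouse, with no test. Etanercept minus control was then −0.275 for Chrm2, −0.411 for Chrm3, 0.029 for Ednra and −1.258 for Pde5a. For the other genes it lay between −1.543 (Adra1b) and −0.261 (Adra1a). The sign for Chrm2, Chrm3 and Ednra thus depended on how smooth muscle was taken into account.

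Of 36 genes downstream of the Gq-coupled receptors, in the Gq and calcium pathway, 5 were higher and 1 was lower in treated prostates with an unadjusted p of 0.05 or less. The background in these directions was 2.99% and 3.63% of all tested genes, and the median log2 fold change of the list was 0.20. Plcb4, a phospholipase C that Gq switches on, had the smallest p of these. It was at 57.9, 51.4, 45.7 and 43.4 CPM in control 1, 3, 65 and 69 and at 127, 80, 82.5 and 119 CPM in etanercept 17, 19, 50 and 52, with no overlap. Its log2 fold change was 1.04 (SE 0.2, unadjusted p = 0.000423, adjusted p = 0.739). Mylk, the myosin light chain kinase, which is also on the smooth muscle list, was at 321 to 695 CPM in controls and 780 to 1230 CPM in treated mice (log2 fold change 0.82, SE 0.28). Rock1, a kinase that slows relaxation, was at 31.9 to 39.7 CPM and 44 to 69.3 CPM (0.53, SE 0.19), and Cacnb2, a calcium channel subunit, had 1.06 (SE 0.38) with overlapping groups. The other 2 genes, named after their values were seen, were Itpr2, a calcium release channel, which was lower, and Ppp1r12a, the targeting subunit of myosin phosphatase, which was higher.

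Of the cyclic AMP pathway, 25 of 26 genes were tested, 4 were higher and 0 lower with an unadjusted p of 0.05 or less, against 2.99% and 3.63% of all tested genes, and the median log2 fold change was 0.11. They were the G protein subunit genes Gnai1 (log2 fold change 0.59, SE 0.16), Gnai3 (0.50, SE 0.18) and Gnao1 (0.78, SE 0.33) and the phosphodiesterase gene Pde3b (0.85, SE 0.31). Gnai2, a related subunit gene named after its values were seen, was at 462 ± 74.4 CPM (SD, n = 4) in controls and 411 ± 67.8 CPM (SD, n = 4) in treated mice, with a log2 fold change of −0.17 (SE 0.2, unadjusted p = 0.41). Gnai1 was at 30.3 to 38.3 CPM in controls and 45.5 to 58.8 CPM in treated mice, without overlap. Of 11 genes of receptor desensitisation, with a median of −0.05, 1 was higher by the same threshold and against the same shares, the Gq and Gi brake Rgs4 (1.13, SE 0.41), and 1 lower, Rgs3 (−0.69, SE 0.25). The adjusted p was 0.739 for each of these genes and for those of the Gq pathway, so 0 were called. These genes stood beside the higher smooth muscle markers of the treated prostates, whose part in them was not tested.

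**Figure D5:**
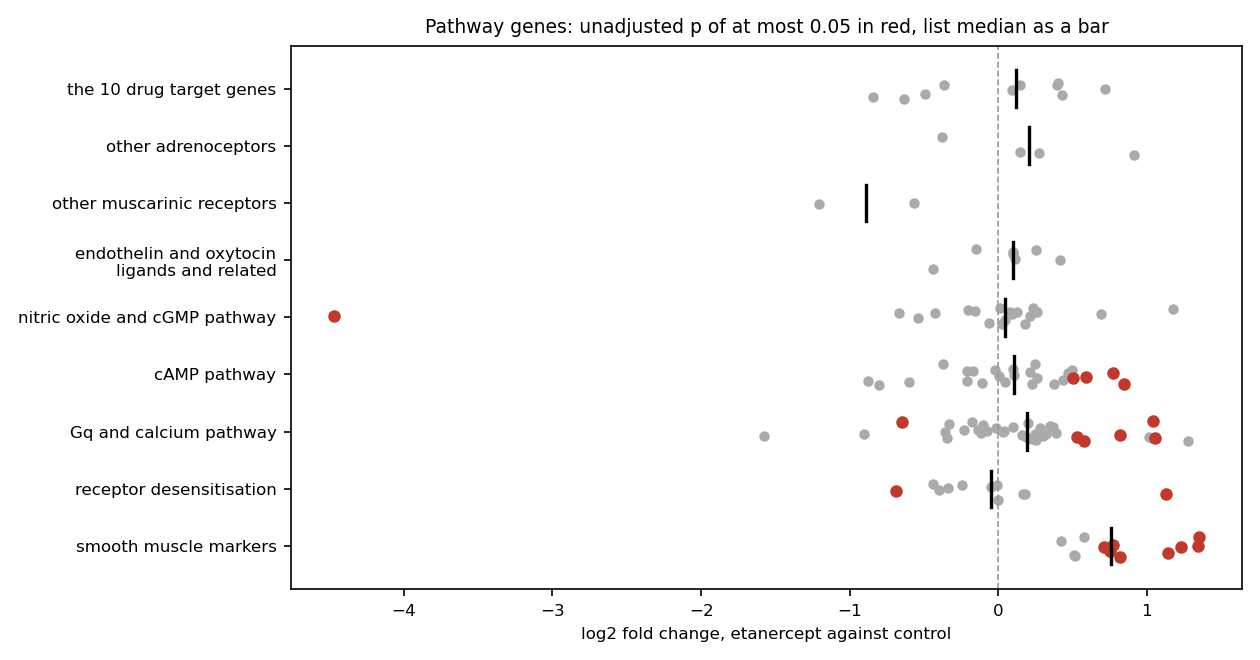
Log2 fold change, etanercept against control (horizontal axis), of the drug target genes, of the lists of related genes and of the smooth muscle markers (rows). Each point is a gene, red where its unadjusted p is at most 0.05, and the black bar is the median of the list, 0.12 for the drug target genes and 0.76 for the smooth muscle markers.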

How the data were processed

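Poly(A)-selected RNA of frozen prostates from 4 control and 4 etanercept-treated mice was sequenced in paired 150 nt reads. The authors then deposited whole-number read counts per gene and mouse, without normalization. The submitters' processing notes name fastp, STAR 2.6.1d, featureCounts 1.5.0-p3, DESeq2 1.26.0 and the build mm10, but the annotation and strand setting of the counting are not given in the sources used here. Genes were named, located and measured in length with GENCODE M21 (GRCm38), which held 54495 of the 54532 identifiers.

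All 8 mice entered 1 fit in R 4.3.3 and edgeR 4.0.16, with filterByExpr (minimum count 10), TMM scaling, the quasi-likelihood test and Benjamini-Hochberg adjustment, after a check on simulated counts. Unadjusted p-values are from the same fit, with a threshold of 0.05. CPM and FPKM are TMM-scaled and were computed from the deposited counts, scores are means of log2(CPM + 1), and a count of 0 was read as allowing up to 3 counts. Floors cover counting error only, since PCR duplicates cannot be recognised in counts.

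The 10 genes, the pathway lists and the marker lists were chosen with earlier results of these data known. Named are the 10 genes, up to 4 genes per pathway list with the smallest p at or below 0.05, the related genes Edn1, Edn2, Edn3, Oxt, Nos1, Nos3, Gucy1a1, Gucy1b1, Prkg1 and Plcb4, and the 2 tested genes with a mean of at least 1 CPM most like each of the 10. Some genes that this rule would name are not reported here. As alternatives, DESeq2 1.42.0, scaling by upper-quartile or RLE factors or by library size, other filters, a robust fit, a block of animal numbers under 20 against those over 49, the smooth muscle score as a covariate and the omission of each mouse were tried. Randomisation blocks are not in the labels and were not modelled.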

Additional observations from a re-analysis of the deposited data

Results flagged for a closer look

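Of the 20 sets of 4 values, 10 genes in 2 groups, 2 held a mouse whose gap to its nearest neighbour, as a fraction of the range of the group, exceeded the 95% critical value of Dixon, a limit that chance passes in about 1 of 20 such sets. Pde5a was at 30.9 CPM in etanercept 17, with a gap of 0.87 of the range to the other treated mice. Ednrb was at 12.7 CPM in control 3, with a gap of 0.846 of the range to the other controls. Without these mice the log2 fold changes were −0.91 for Pde5a and 0.74 for Ednrb.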

How the results depend on the processing

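The number of genes called was 0 under every alternative except DESeq2, which called 21, and it was 0 to 0 when each mouse was left out. Of the 10 drug target genes, 0 had an unadjusted p of 0.05 or less under the other settings, and 0 to 1 when each mouse was left out. The 1 gene was Chrm2 without control 1, Ednra without control 3 and Pde5a without etanercept 17, where 5.97%, 5.89% and 6.81% of all tested genes reached that p. Of the fold changes of single genes under all alternatives, 156 kept their sign and 12 turned. With the smooth muscle score as a covariate the log2 fold change was −0.66 for Adra1a, −0.93 for Adra1d, −0.52 for Ednra and −0.88 for Oxtr. With mice left out it ranged from −0.003 to 0.83 for Adra1a, −0.23 to 0.64 for Adra1d, −1.06 to 0.67 for Adrb3, −1.29 to 0.74 for Ednrb and −0.26 to 0.72 for Oxtr, and, with no change of sign, 0.16 to 1.27 for Chrm2, 0.39 to 1.24 for Ednra and −0.91 to −0.13 for Pde5a. The cause was not tested. With the longest transcript as gene length, 0 neighbouring pairs in the order of levels held in all 8 mice. A filter of 10 counts in every mouse left out Adra1b and Adrb3. Counts as low as 0 to 62 for Adra1b and 0 to 160 for Adrb3 limit what can be seen, as does a biological coefficient of variation of 0.547. No paired analysis was possible because the groups share no animal number.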
